A study of Mus musculus with 4 samples.

Results

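The 32 genes described here carry glucose through glycolysis to lactate or belong to the response to low oxygen. They were chosen by name from what the genes are known to do, with earlier results of these data known: 2 glucose transporters, 10 genes of the upper pathway, 2 genes of PFKFB enzymes, 7 genes of the lower pathway, 4 genes of lactate metabolism and export, 2 pyruvate dehydrogenase kinases and 5 genes of oxygen sensing and its targets. All 32 are among the 26026 genes of the table, and 31 of them averaged 1 RPKM or more across the libraries, as did 11786 genes in all. RPKM scales reads by the length of the gene model and the depth of the library. The member below that mean was Eno2.

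The study asked how the NF-κB subunits RelA and p50 act together while bone marrow cells turn into dendritic cells. Mouse bone marrow-derived dendritic cell (BMDC) cultures of 2 genotypes, both labelled with the strain name C57/B16, were grown with Flt3 ligand at 100 ng/mL, and polyA RNA was sequenced. The groups were Nfkb1-/- cells at day 3, wild-type cells at day 3, Nfkb1-/- cells at day 5 and wild-type cells at day 5, with 1 library in each. The medium, RPMI with serum, 2-BME and antibiotics, was replenished on day 3 in all cultures, and the labels do not say whether the day 3 cells were taken before or after that. Nor do they give the animals' age or sex, the number of animals, or which part of Nfkb1 the allele removes.

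Glycolysis splits glucose into pyruvate and yields ATP without oxygen. Pyruvate then enters mitochondria through pyruvate dehydrogenase, or is turned into lactate and exported with a proton. When oxygen is low, the transcription factor HIF-1 (HIF-1α with ARNT) accumulates because prolyl hydroxylases no longer mark it for destruction, and it raises transcription of many glycolytic genes. In dendritic cells and other myeloid cells, glycolysis is known to be raised on activation, and HIF-1α can be induced there by NF-κB as well as by low oxygen.

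HIF binds the core motif ACGTG, or less often GCGTG, within a hypoxia response element, and CACGTG, the E-box bound by Myc, contains ACGTG. The promoters below are those of the 8 members that were higher in Nfkb1-/- cells by at least 1 on the log2 scale at day 5, as given further on, of which Pfkl and Tpi1 hold no ACGTG. That of Ldha, below this size at day 5, was added for its several matches. Each is the 250 bases before the annotated start, 5′ to 3′ on the gene's strand, from RefSeq on build GRCm38.p6, with capitals marking ACGTG on either strand and any CACGTG that contains it. The deposited values were made on mm9, so these coordinates do not apply to the authors' alignments. The windows are chr4:119108495-119108744 (plus strand) for Slc2a1, chrX:106186850-106187099 (plus) for Pgk1, chr7:46845554-46845803 (plus) for Ldha, chr3:104638414-104638663 (plus) for Slc16a1, chr11:120948817-120949066 (plus) for Slc16a3, chr12:54203875-54204124 (minus) for Egln3, chr7:138909507-138909756 (minus) for Bnip3, chr10:78009808-78010057 (minus) for Pfkl and chr6:124814159-124814408 (minus) for Tpi1.
Slc2a1: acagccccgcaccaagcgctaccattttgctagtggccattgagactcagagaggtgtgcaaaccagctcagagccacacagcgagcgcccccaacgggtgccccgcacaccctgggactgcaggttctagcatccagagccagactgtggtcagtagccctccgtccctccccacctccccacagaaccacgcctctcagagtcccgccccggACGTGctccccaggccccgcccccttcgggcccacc
Pgk1: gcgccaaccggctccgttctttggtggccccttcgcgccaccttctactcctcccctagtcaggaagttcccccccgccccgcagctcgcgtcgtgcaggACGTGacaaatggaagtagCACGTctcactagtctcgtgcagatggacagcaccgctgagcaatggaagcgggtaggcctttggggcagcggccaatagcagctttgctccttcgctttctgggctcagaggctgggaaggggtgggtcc
Ldha: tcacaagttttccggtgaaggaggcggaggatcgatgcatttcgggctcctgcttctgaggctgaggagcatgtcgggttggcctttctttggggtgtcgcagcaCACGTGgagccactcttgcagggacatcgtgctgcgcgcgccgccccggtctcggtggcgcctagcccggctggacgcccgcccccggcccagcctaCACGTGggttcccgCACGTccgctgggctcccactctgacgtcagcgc
Slc16a1: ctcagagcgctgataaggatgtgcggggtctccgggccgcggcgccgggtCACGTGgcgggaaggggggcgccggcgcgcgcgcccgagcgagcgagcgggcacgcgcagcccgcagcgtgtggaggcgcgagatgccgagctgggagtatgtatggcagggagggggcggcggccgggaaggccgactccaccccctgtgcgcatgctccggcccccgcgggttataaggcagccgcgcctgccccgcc
Slc16a3: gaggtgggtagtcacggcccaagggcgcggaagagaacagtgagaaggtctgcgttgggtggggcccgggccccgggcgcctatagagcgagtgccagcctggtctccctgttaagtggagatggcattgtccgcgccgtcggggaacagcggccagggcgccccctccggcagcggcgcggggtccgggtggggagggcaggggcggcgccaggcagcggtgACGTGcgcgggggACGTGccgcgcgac
Egln3: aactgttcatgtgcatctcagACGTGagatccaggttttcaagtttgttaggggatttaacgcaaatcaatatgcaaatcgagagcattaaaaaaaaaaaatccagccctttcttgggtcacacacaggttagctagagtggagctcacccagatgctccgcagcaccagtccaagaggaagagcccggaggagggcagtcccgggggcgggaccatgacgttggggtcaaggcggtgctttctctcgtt
Bnip3: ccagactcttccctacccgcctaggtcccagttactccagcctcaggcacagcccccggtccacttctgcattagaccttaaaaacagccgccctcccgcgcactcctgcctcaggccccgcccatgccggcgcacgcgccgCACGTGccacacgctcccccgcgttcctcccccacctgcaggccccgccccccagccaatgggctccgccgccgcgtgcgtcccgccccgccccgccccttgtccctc
Pfkl: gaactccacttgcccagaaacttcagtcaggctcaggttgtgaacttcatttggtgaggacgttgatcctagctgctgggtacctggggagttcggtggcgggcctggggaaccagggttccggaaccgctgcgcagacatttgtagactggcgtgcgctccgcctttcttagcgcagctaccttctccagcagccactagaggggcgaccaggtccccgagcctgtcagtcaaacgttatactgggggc
Tpi1: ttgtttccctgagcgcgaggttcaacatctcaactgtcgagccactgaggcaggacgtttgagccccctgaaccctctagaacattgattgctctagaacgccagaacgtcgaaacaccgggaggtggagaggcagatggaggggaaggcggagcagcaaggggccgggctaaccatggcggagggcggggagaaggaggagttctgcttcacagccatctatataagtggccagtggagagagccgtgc

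Promoters were listed for 31 members, all but Slc2a3, and several had more than 1 start, giving 45 windows. ACGTG on either strand stood in 21 of the 45 (46.7%), in 22.2% of the 11384 promoters of genes averaging 1 RPKM or more, and in 16.6% of all 32851 promoters. By gene, 18 of 31 members (58.1%) held it in at least 1 window, as did 25.7% of 9051 genes with that mean and 18.5% of all genes with a promoter. The members were chosen by name and include known HIF targets, so their share is not independent of that choice. They also had more windows per gene, 45 for 31 members against 11384 for 9051 genes, which gives more places for a match. GCGTG stood in 53.3% of the members' windows, against 44.4% for genes with that mean, and CACGTG in 13.3%, against 8.47%. Ldha, at its first start, held 3 separate stretches, 2 of them CACGTG. Slc2a1 held 1 match, 36 bases before the start, and Slc16a3 held 2 within 27 bases of it. Of the 8 members higher by at least 1 at day 5, 6 held ACGTG, and so did 12 of the 22 members that did not reach that size in either direction, Ldha among them. The difference between these counts was not tested. Tpi1, with no match, had a greater difference than all of those 6 but Slc16a1. A match describes these letters only, and its absence says nothing about any factor.

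The 4 libraries held 15255070 to 16215214 reads, as recovered from the steps of the RPKM values. With 1 library per group no test between conditions is possible and no spread between cultures is known. Each ratio therefore carries an exact (Clopper-Pearson) 95% interval that covers counting error only, and size is given as a difference of log2(RPKM + 1), which understates the change of low genes. A difference of at least 1 on that scale is the size rule used throughout. Nfkb1, the targeted gene, had 56.0 RPKM in Nfkb1-/- cells and 74.8 RPKM in wild-type cells at day 3, and 64.7 RPKM in Nfkb1-/- cells and 113.8 RPKM in wild-type cells at day 5. That value covers the whole gene model and does not show whether the removed part was read. Of 15 dendritic cell markers, such as Itgax, Zbtb46 and the class II genes, none was at 1 read or less in any library; their summed level was 1727 RPKM in Nfkb1-/- cells and 3074 RPKM in wild-type cells at day 3, and 2014 RPKM in Nfkb1-/- cells and 5074 RPKM in wild-type cells at day 5. Neutrophil markers were higher in sum in every library, least so in Nfkb1-/- cells at day 5, at 24208 RPKM in Nfkb1-/- cells and 34399 RPKM in wild-type cells at day 3, and 3016 RPKM in Nfkb1-/- cells and 13938 RPKM in wild-type cells at day 5. The sums of the marker lists cover different genes, so setting one beside another does not compare numbers of cells. In such mixed bulk cultures, fewer cells of a type and less RNA per cell cannot be told apart.

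Most of the pathway was higher in Nfkb1-/- cells. Summed over the 32 genes, the level was 1998 RPKM in Nfkb1-/- cells and 1409 RPKM in wild-type cells at day 3, and 1828 RPKM in Nfkb1-/- cells and 1197 RPKM in wild-type cells at day 5. At day 3, 25 of 31 members lay above 0, as did 66.6% of all 11786 genes, with a median log2 difference of 0.48 for the members and 0.13 for all genes. At day 5, 24 of 31 lay above 0, as did 51.2% of all genes, and the medians were 0.41 and 0.01. The size rule was met at day 3 by 2 members that were higher, Pdk1 and Egln3, where 0.976% of all genes met it, and by 0 that were lower, where 0.882% did. At day 5 it was met by 8 that were higher (Slc2a1, Pfkl, Tpi1, Pgk1, Slc16a1, Slc16a3, Egln3 and Bnip3), where 1.16% of all genes met it, and by 2 that were lower (Slc2a3 and Ldhb), where 3.22% did. Over both days, 23 of 31 members (74.2%) were higher at both, as were 41.2% of all genes, 5 were lower at both and 3 differed in sign.

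**Figure D1:**
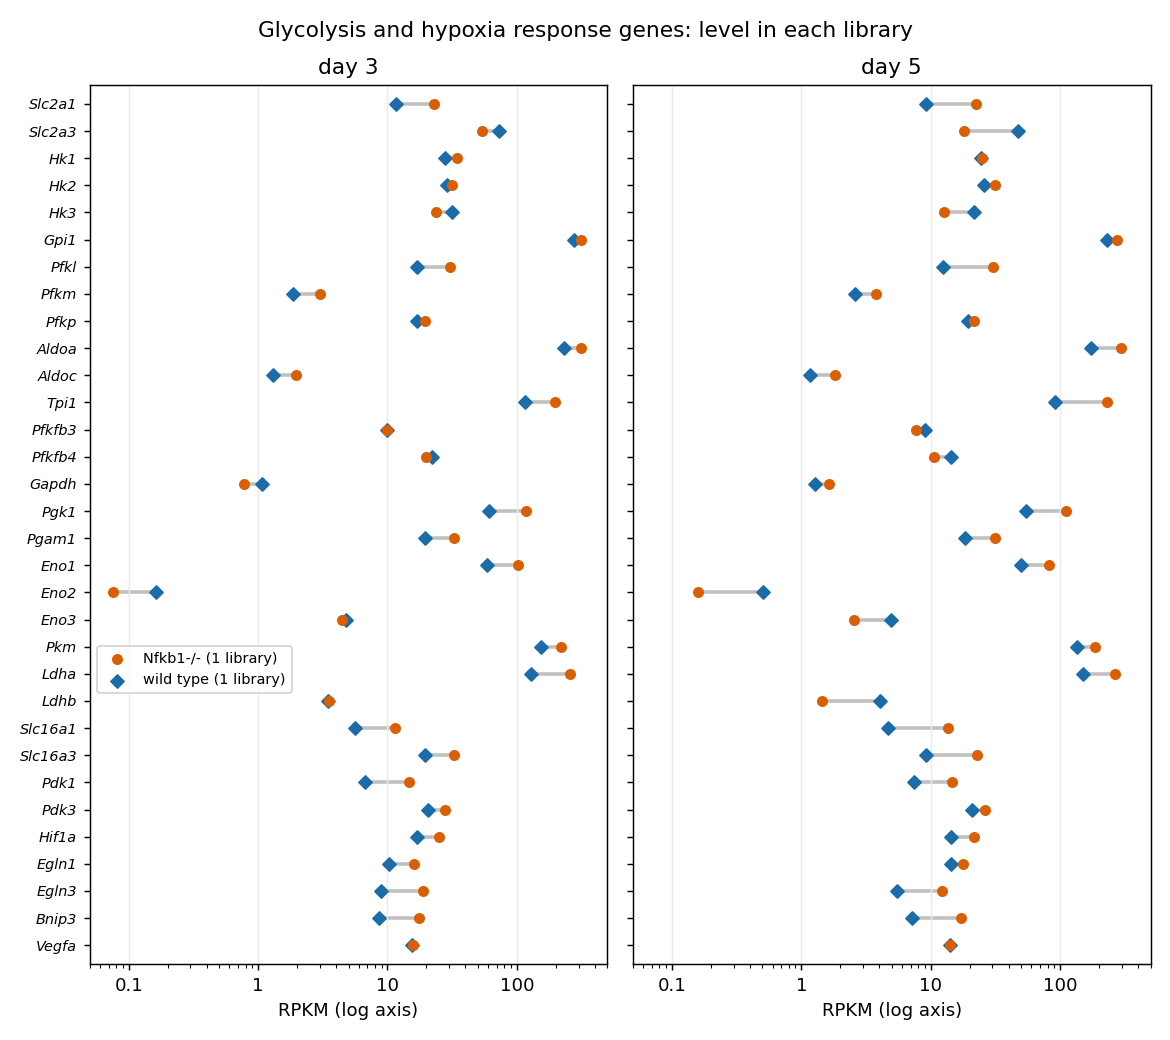
Level of each of the 32 genes in RPKM on a log axis, with day 3 on the left and day 5 on the right; circles are the Nfkb1-/- library and diamonds the wild-type library, 1 of each per day. Circles lie right of diamonds for most enzymes. Slc2a3, Hk3, Pfkfb4, Eno2, Eno3 and, by very little at day 3, Pfkfb3 show the opposite order at both days.

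**Figure D2:**
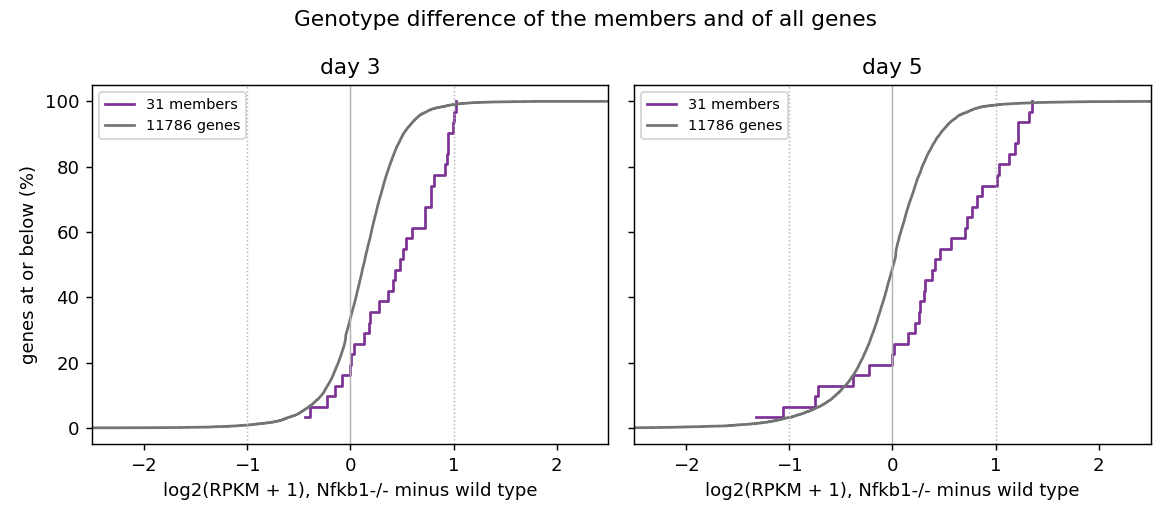
Share of genes (%) at or below each difference of log2(RPKM + 1), Nfkb1-/- minus wild type, for 31 members and for 11786 genes, at day 3 and day 5; dotted lines mark the size rule of 1 in each direction. The members' median is 0.48 at day 3 and 0.41 at day 5, against 0.13 and 0.01 for all genes. At day 5 the members' line also starts to climb at lower values, with Slc2a3 and Ldhb below -1.

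The libraries' scaling bears on day 3. When the libraries were rescaled by their median ratio, the median of all genes at day 3 moved to -0.02, the share of genes above 0 became 47.7%, the members' median became 0.34 with 22 of 31 above 0, and neither Pdk1 (0.87) nor Egln3 (0.85) met the size rule. At day 5 that rescaling left the members' median at 0.39 with 23 of 31 above 0, and Pgk1 fell just short of the size rule at 0.996.

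The 2 glucose transporters went in opposite directions. Slc2a1 (GLUT1), the widespread basal transporter, had 23.0 RPKM in Nfkb1-/- cells and 11.5 RPKM in wild-type cells at day 3, and 22.3 RPKM in Nfkb1-/- cells and 9.24 RPKM in wild-type cells at day 5. Slc2a3 (GLUT3), a transporter of high glucose affinity found in neurons and leukocytes, had 53.3 RPKM in Nfkb1-/- cells and 72.4 RPKM in wild-type cells at day 3, and 18.2 RPKM in Nfkb1-/- cells and 47.0 RPKM in wild-type cells at day 5. Slc2a1 was thus the higher in Nfkb1-/- cells at both days and Slc2a3 the lower. For Slc2a1 the genotypes' ratio, Nfkb1-/- over wild type, came to 1.99 (interval 1.78 to 2.23) at day 3 and 2.42 (2.14 to 2.73) at day 5. For Slc2a3 it came to 0.737 (0.704 to 0.771) and then 0.388 (0.362 to 0.416). Slc2a1 made up 55.0% of the summed level of both transporters in Nfkb1-/- cells and 16.4% in wild-type cells at day 5, and 30.1% in Nfkb1-/- cells and 13.8% in wild-type cells at day 3. The Slc2a1 to Slc2a3 ratio, which no rescaling of libraries can move, was 2.70 times as high in Nfkb1-/- cells as in wild-type cells at day 3 (2.39 to 3.06) and 6.23 times at day 5 (5.41 to 7.17). The 14 neutrophil markers moved the same way as Slc2a3. Of them 0 of 14 were above 0 at either day, where 66.6% of all genes were at day 3 and 51.2% at day 5. At day 5, 13 were lower by at least 1, where 3.22% of all genes were. The part of these markers in the Slc2a3 difference was not tested.

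**Figure D3:**
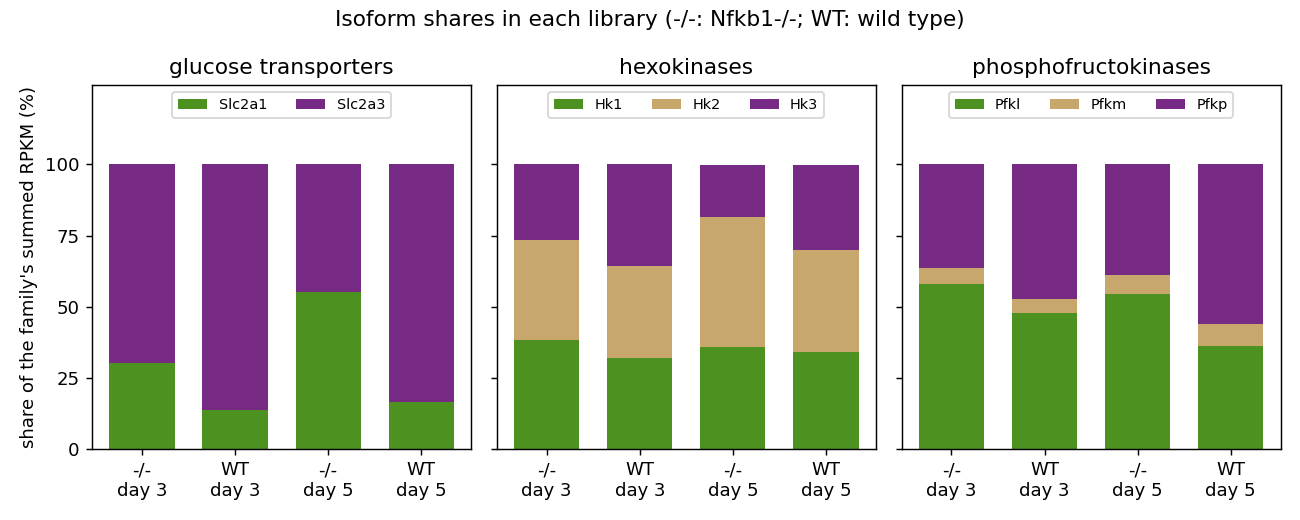
Share (%) of each isoform in the summed RPKM of its family, for the glucose transporters, hexokinases and phosphofructokinases, in the Nfkb1-/- and wild-type libraries of day 3 and day 5 (1 library per bar). Slc2a1 takes 55.0% in Nfkb1-/- cells against 16.4% in wild-type cells at day 5, and Pfkl takes 54.3% against 36.1%.

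Hexokinases trap glucose in the cell as glucose 6-phosphate, and here the isoforms differed. Hk1, the housekeeping form, had 34.2 RPKM in Nfkb1-/- cells and 28.0 RPKM in wild-type cells at day 3, and 24.8 RPKM in Nfkb1-/- cells and 24.5 RPKM in wild-type cells at day 5. Hk2, the inducible form, had 31.4 RPKM in Nfkb1-/- cells and 28.7 RPKM in wild-type cells at day 3, and 31.5 RPKM in Nfkb1-/- cells and 25.9 RPKM in wild-type cells at day 5. Hk3, a form of myeloid cells, had 23.7 RPKM in Nfkb1-/- cells and 31.4 RPKM in wild-type cells at day 3, and 12.7 RPKM in Nfkb1-/- cells and 21.6 RPKM in wild-type cells at day 5. Hk1 and Hk2 thus differed little between genotypes, while Hk3 was lower in Nfkb1-/- cells, by a ratio of 0.756 (0.699 to 0.817) at day 3 and 0.589 (0.532 to 0.652) at day 5. The Hk2 to Hk3 ratio was 1.45 times as high in Nfkb1-/- cells at day 3 (1.32 to 1.60) and 2.06 times at day 5 (1.84 to 2.32). The difference of Hk2 at day 3, 0.13, became -0.04 under the median-ratio rescaling, and that of Hk1 at day 5, 0.01, became -0.01.

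Gpi1, which converts glucose 6-phosphate to fructose 6-phosphate, was among the most abundant members, at 315.6 RPKM in Nfkb1-/- cells and 277.1 RPKM in wild-type cells at day 3, and 273.8 RPKM in Nfkb1-/- cells and 228.7 RPKM in wild-type cells at day 5. Its ratio of 1.14 (1.11 to 1.17) at day 3 and 1.20 (1.17 to 1.23) at day 5 was small beside those of later steps. Phosphofructokinase, the committed step, is built from 3 isoforms. Pfkl, the liver type, had 30.7 RPKM in Nfkb1-/- cells and 17.1 RPKM in wild-type cells at day 3, and 30.4 RPKM in Nfkb1-/- cells and 12.4 RPKM in wild-type cells at day 5, giving ratios of 1.80 (1.66 to 1.95) and 2.44 (2.24 to 2.66). Pfkp, the platelet type, had 19.4 RPKM in Nfkb1-/- cells and 16.9 RPKM in wild-type cells at day 3, and 21.7 RPKM in Nfkb1-/- cells and 19.4 RPKM in wild-type cells at day 5, a smaller difference. Pfkm, the muscle type, was low, at 2.98 RPKM in Nfkb1-/- cells and 1.85 RPKM in wild-type cells at day 3, and 3.81 RPKM in Nfkb1-/- cells and 2.61 RPKM in wild-type cells at day 5. The Pfkl share of the family was 54.3% in Nfkb1-/- cells and 36.1% in wild-type cells at day 5, and the Pfkl to Pfkp ratio was 2.18 times as high in Nfkb1-/- cells (1.94 to 2.45).

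Aldolase cuts fructose 1,6-bisphosphate into 2 triose phosphates, and Tpi1 interconverts them. Aldoa, the main aldolase of these cells, had 313.1 RPKM in Nfkb1-/- cells and 231.7 RPKM in wild-type cells at day 3, and 295.1 RPKM in Nfkb1-/- cells and 173.1 RPKM in wild-type cells at day 5. Tpi1 had 198.4 RPKM in Nfkb1-/- cells and 114.8 RPKM in wild-type cells at day 3, and 231.6 RPKM in Nfkb1-/- cells and 92.1 RPKM in wild-type cells at day 5. Both were higher in Nfkb1-/- cells at each day, and more so at day 5: the ratio of Aldoa was 1.35 (1.31 to 1.40) and then 1.71 (1.64 to 1.77), and that of Tpi1 was 1.73 (1.65 to 1.81) and then 2.51 (2.39 to 2.64). By the log2 difference Tpi1 ranked 61st from the top of 11786 genes at day 5. Aldoc, the brain form, was near 1 to 2 RPKM in all libraries, at 1.96 RPKM in Nfkb1-/- cells and 1.30 RPKM in wild-type cells at day 3, and 1.82 RPKM in Nfkb1-/- cells and 1.16 RPKM in wild-type cells at day 5. It stayed under 1% of the summed aldolase level.

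Enzymes of the PFKFB family make and remove fructose 2,6-bisphosphate, the activator of phosphofructokinase. Pfkfb3, which mostly makes it, had 9.91 RPKM in both genotypes at day 3, and 7.63 RPKM in Nfkb1-/- cells and 9.08 RPKM in wild-type cells at day 5. Pfkfb4 had 19.9 RPKM in Nfkb1-/- cells and 22.1 RPKM in wild-type cells at day 3, and 10.7 RPKM in Nfkb1-/- cells and 14.2 RPKM in wild-type cells at day 5. Both were lower in Nfkb1-/- cells at day 5, unlike most enzymes, with ratios of 0.841 (0.754 to 0.937) for Pfkfb3 and 0.750 (0.671 to 0.838) for Pfkfb4.

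**Figure D4:**
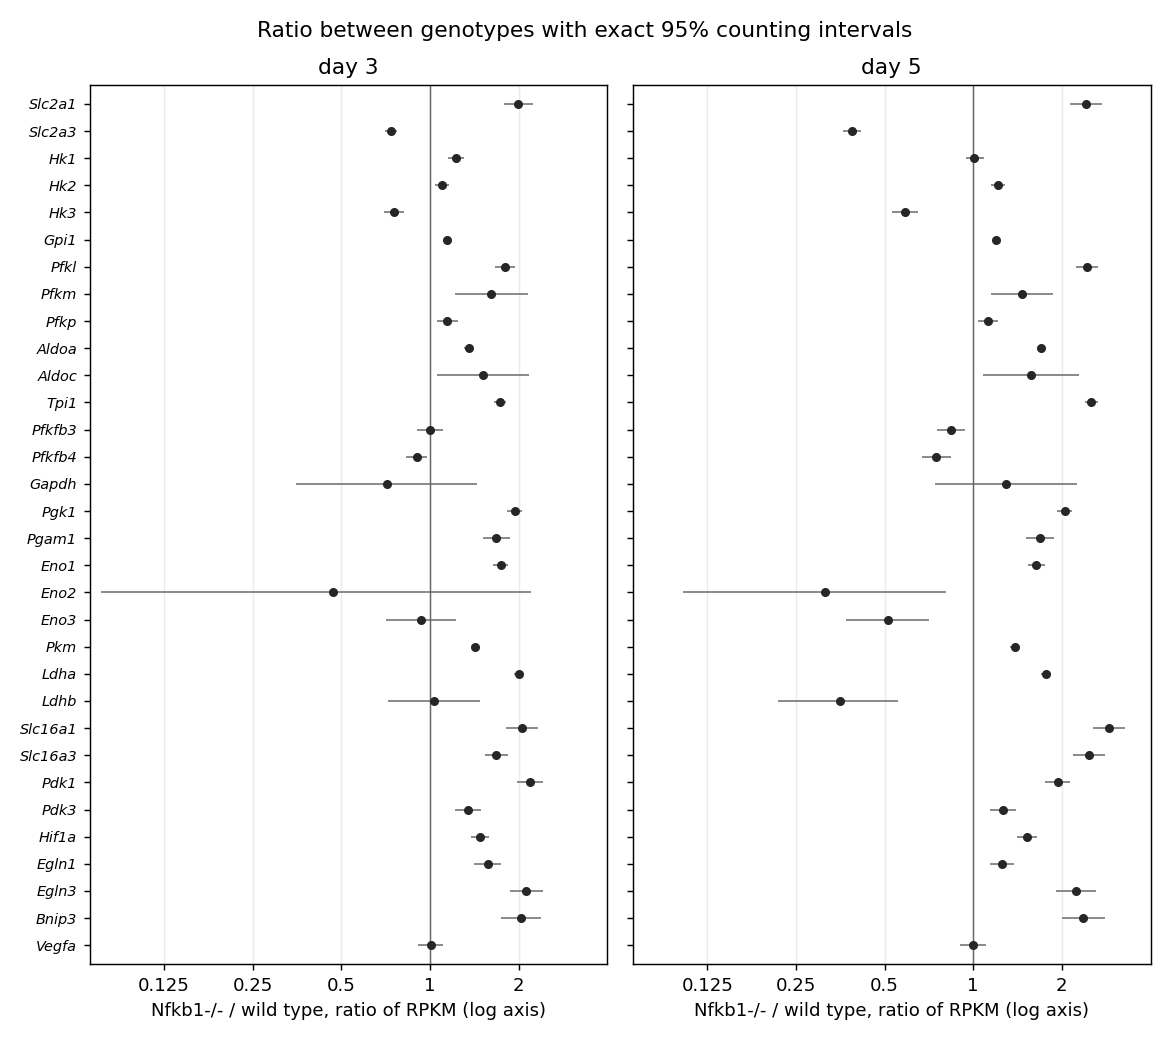
Ratio of RPKM, Nfkb1-/- over wild type, on a log axis for each of the 32 genes at day 3 and day 5; points are the ratios, bars the exact 95% counting intervals, and the vertical line marks 1. The interval lay above 1 for 23 genes at day 3 and 22 at day 5, below 1 for 3 and 7, and included 1 for 6 and 3. No such count was made over all genes, so these counts describe only the counting precision of the members.

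In the lower pathway, Pgk1, which makes the first ATP of the pathway, had 118.0 RPKM in Nfkb1-/- cells and 60.8 RPKM in wild-type cells at day 3, and 111.3 RPKM in Nfkb1-/- cells and 54.5 RPKM in wild-type cells at day 5. Its ratio was 1.94 (1.83 to 2.06) at day 3 and then 2.04 (1.92 to 2.17) at day 5, the greatest of the lower pathway at both. Pgam1, the mutase that follows, had 32.5 RPKM in Nfkb1-/- cells and 19.4 RPKM in wild-type cells at day 3, and 31.2 RPKM in Nfkb1-/- cells and 18.5 RPKM in wild-type cells at day 5. Eno1, the general enolase, had 102.1 RPKM in Nfkb1-/- cells and 58.8 RPKM in wild-type cells at day 3, and 82.0 RPKM in Nfkb1-/- cells and 50.1 RPKM in wild-type cells at day 5. Pkm, which makes pyruvate and the last ATP, had 219.2 RPKM in Nfkb1-/- cells and 154.0 RPKM in wild-type cells at day 3, and 185.1 RPKM in Nfkb1-/- cells and 134.0 RPKM in wild-type cells at day 5. These 4 genes were thus higher in Nfkb1-/- cells at both days, with the smallest ratio for Pkm, 1.42 (1.37 to 1.48) at day 3 and 1.38 (1.33 to 1.44) at day 5.

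The other enolases went another way. Eno3, the muscle enolase, had 4.46 RPKM in Nfkb1-/- cells and 4.78 RPKM in wild-type cells at day 3, and 2.54 RPKM in Nfkb1-/- cells and 4.95 RPKM in wild-type cells at day 5, a ratio of 0.514 (0.369 to 0.710) at day 5. Eno2, the neuronal enolase, had 3 reads in Nfkb1-/- cells and 6 reads in wild-type cells at day 3, and 6 reads in Nfkb1-/- cells and 20 reads in wild-type cells at day 5, with a wide interval of its day 5 ratio, 0.103 to 0.811. No value in the table is 0, and whether 1 read served as a floor or was added to every value is not known; had it been added, that interval would be 0.0804 to 0.763. Gapdh, the enzyme that oxidises glyceraldehyde 3-phosphate, had 0.775 RPKM in Nfkb1-/- cells and 1.08 RPKM in wild-type cells at day 3, and 1.63 RPKM in Nfkb1-/- cells and 1.27 RPKM in wild-type cells at day 5. These values rest on 16 reads in Nfkb1-/- cells and 21 in wild-type cells at day 3, and on 32 in Nfkb1-/- cells and 26 in wild-type cells at day 5, and lie far below the levels of Tpi1 and Pgk1, the enzymes on either side of it.

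Several of these genes share sequence with other annotated genes. In the GENCODE annotation of the mouse, 90.4% of the 50-base stretches of the Gapdh transcript also occur in other genes, 215 of them pseudogenes. The share was 72.2% for Eno1, 68.0% for Pgk1, 62.4% for Bnip3, 41.5% for Pgam1 and 34.4% for Pkm, and 15 members had none. It counts any other gene on either strand, so genes that overlap a member at its own place are not set apart from copies elsewhere. For Bnip3 the largest shares were with a long noncoding RNA (45%) and an antisense transcript (21%), ahead of a pseudogene (18%). How the authors treated reads that match several places is not stated in the sources used here, and its part in the low Gapdh value was not tested. Over the 20 members that averaged 1 RPKM or more and shared under 10%, the median log2 difference was 0.45 at day 3 and 0.35 at day 5. Of these, 15 were above 0 at day 3, where 66.6% of all genes were, and 14 at day 5, where 51.2% were. The medians over all genes were 0.13 and 0.01.

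Of the 4 genes of lactate metabolism and export, 0 met the size rule at day 3, where 0.976% of all genes were higher and 0.882% lower by it. At day 5 it was met by 2 that were higher, where 1.16% of all genes met it, and by 1 that was lower, where 3.22% did. Ldha, the muscle-type lactate dehydrogenase subunit that favours lactate, had 259.6 RPKM in Nfkb1-/- cells and 129.4 RPKM in wild-type cells at day 3, and 267.0 RPKM in Nfkb1-/- cells and 151.1 RPKM in wild-type cells at day 5. Ldhb, the heart-type subunit, had 3.55 RPKM in Nfkb1-/- cells and 3.44 RPKM in wild-type cells at day 3, and 1.43 RPKM in Nfkb1-/- cells and 4.05 RPKM in wild-type cells at day 5. Ldha was the higher in Nfkb1-/- cells by a ratio of 2.01 (1.92 to 2.09) at day 3 and 1.77 (1.70 to 1.84) at day 5, and its day 3 log2 difference of 0.9995 lay just under the size rule. Ldhb differed at day 5 alone beyond counting error, by a ratio of 0.353 (0.217 to 0.558) that rests on 26 reads in Nfkb1-/- cells and 77 in wild-type cells. Its day 3 difference of 0.04 turned to -0.10 under the median-ratio rescaling and -0.03 with equal sums of RPKM. In both genotypes Ldha made up over 97% of the summed level of these subunits.

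The monocarboxylate transporters move lactate with a proton. Slc16a1 (MCT1), which carries it in either direction, had 11.5 RPKM in Nfkb1-/- cells and 5.62 RPKM in wild-type cells at day 3, and 13.6 RPKM in Nfkb1-/- cells and 4.71 RPKM in wild-type cells at day 5. Slc16a3 (MCT4), an exporter of highly glycolytic cells, had 32.9 RPKM in Nfkb1-/- cells and 19.6 RPKM in wild-type cells at day 3, and 22.8 RPKM in Nfkb1-/- cells and 9.23 RPKM in wild-type cells at day 5. Both were higher in Nfkb1-/- cells and met the size rule at day 5. The ratio of Slc16a1 was 2.05 (1.81 to 2.32) at day 3 and then 2.88 (2.54 to 3.28) at day 5, ranking 56th of 11786 genes by log2 difference, and that of Slc16a3 was 1.68 (1.53 to 1.84) and 2.47 (2.19 to 2.80).

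Pyruvate dehydrogenase kinases switch off the entry of pyruvate into the tricarboxylic acid cycle. Pdk1, a target of HIF-1, had 14.6 RPKM in Nfkb1-/- cells and 6.67 RPKM in wild-type cells at day 3, and 14.5 RPKM in Nfkb1-/- cells and 7.49 RPKM in wild-type cells at day 5. Pdk3 had 27.7 RPKM in Nfkb1-/- cells and 20.5 RPKM in wild-type cells at day 3, and 26.1 RPKM in Nfkb1-/- cells and 20.7 RPKM in wild-type cells at day 5. Both were higher in Nfkb1-/- cells at both days. Pdk1 had a ratio of 2.19 (1.97 to 2.43) at day 3 and 1.93 (1.75 to 2.14) at day 5, and Pdk3 had 1.35 (1.22 to 1.50) and 1.26 (1.14 to 1.39). The Pdk1 to Pdk3 ratio was 1.62 times as high in Nfkb1-/- cells at day 3 (1.40 to 1.88) and 1.54 times at day 5 (1.33 to 1.77).

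Among the oxygen-sensing genes, Hif1a, which encodes HIF-1α, had 25.2 RPKM in Nfkb1-/- cells and 17.0 RPKM in wild-type cells at day 3, and 21.7 RPKM in Nfkb1-/- cells and 14.3 RPKM in wild-type cells at day 5. Its ratio was 1.48 (1.37 to 1.59) at day 3 and then 1.52 (1.41 to 1.64) at day 5. HIF-1α is controlled mostly through the stability of the protein, which these data do not measure. Egln1 (PHD2), the main prolyl hydroxylase, had 16.1 RPKM in Nfkb1-/- cells and 10.3 RPKM in wild-type cells at day 3, and 17.9 RPKM in Nfkb1-/- cells and 14.3 RPKM in wild-type cells at day 5, higher in Nfkb1-/- cells by less at day 5. Egln3 (PHD3), a hydroxylase that HIF itself induces, had 18.9 RPKM in Nfkb1-/- cells and 8.89 RPKM in wild-type cells at day 3, and 12.3 RPKM in Nfkb1-/- cells and 5.50 RPKM in wild-type cells at day 5. Egln3 was the only member to meet the size rule at both days, with ratios of 2.13 (1.88 to 2.41) and 2.23 (1.91 to 2.62), although it fell below 1 at day 3 under both rescalings.

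Classical HIF targets did not move alike. Bnip3, a mitophagy receptor, had 17.6 RPKM in Nfkb1-/- cells and 8.62 RPKM in wild-type cells at day 3, and 17.0 RPKM in Nfkb1-/- cells and 7.21 RPKM in wild-type cells at day 5. Its ratio was 2.04 (1.74 to 2.39) at day 3 and then 2.36 (2.00 to 2.80) at day 5, close to those of Pgk1 and Slc2a1. Vegfa, the angiogenic growth factor, had 15.7 RPKM in Nfkb1-/- cells and 15.6 RPKM in wild-type cells at day 3, and 14.0 RPKM in both genotypes at day 5. Its ratio was 1.01 (0.913 to 1.11) at day 3 and then 0.998 (0.902 to 1.11) at day 5, and the sign of its difference turned with both rescalings at day 3 and with equal sums of RPKM at day 5.

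Other genes of the pathway were taken from lists of the same kind. Of 28 other HIF targets 20 averaged 1 RPKM or more, and 18 of them were above 0 at day 3, where 66.6% of all genes were, and 12 at day 5, where 51.2% were. Their median log2 differences were 0.25 at day 3 and 0.07 at day 5, beside 0.13 and 0.01 for the 11786 genes. The size rule was met by 2 of these targets, both higher at day 5, where 1.16% of the 11786 genes met it. Of those 11786, 0.976% passed it upward and 0.882% downward at day 3, and 3.22% downward at day 5. Mif, a cytokine, had 68.2 RPKM in Nfkb1-/- cells and 38.2 RPKM in wild-type cells at day 3, and 87.4 RPKM in Nfkb1-/- cells and 39.5 RPKM in wild-type cells at day 5, and Ankrd37 had 7.83 RPKM in Nfkb1-/- cells and 3.29 RPKM in wild-type cells at day 5. Of 24 other isoforms of glycolytic enzymes and transporters, 12 had that mean, with 7 above 0 at day 3 and 8 at day 5. Only Pdk2, another pyruvate dehydrogenase kinase, met the size rule, as lower at day 5, where 3.22% of the 11786 genes did. Pdk2 had 1.42 RPKM in Nfkb1-/- cells and 4.32 RPKM in wild-type cells at day 5. Of 10 genes that control or partner HIF, 7 had that mean, 3 and 4 were above 0 at day 3 and day 5, and none met the size rule. Their summed level was 117.5 RPKM in Nfkb1-/- cells and 118.1 RPKM in wild-type cells at day 3, and 117.8 RPKM in Nfkb1-/- cells and 118.5 RPKM in wild-type cells at day 5.

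Other differences between the libraries ran beside these. Among all 11786 genes, 66.6% were above 0 at day 3 and 51.2% at day 5, with median log2 differences of 0.13 and 0.01. By the size rule 0.976% of all genes were higher at day 3. At day 5, 1.16% were higher by it and 3.22% lower. Of 16 proliferation genes, 15 were above 0 at day 3 and 16 at day 5, with a median log2 difference of 0.57 and 0.51, and summed levels of 843.8 RPKM in Nfkb1-/- cells and 600.3 RPKM in wild-type cells at day 3, and 1149 RPKM in Nfkb1-/- cells and 808.8 RPKM in wild-type cells at day 5. Myc, a transcription factor that raises many glycolytic genes, had 35.7 RPKM in Nfkb1-/- cells and 21.4 RPKM in wild-type cells at day 3, and 40.4 RPKM in Nfkb1-/- cells and 24.8 RPKM in wild-type cells at day 5. The neutrophil markers summed to 0.704 times the wild-type level at day 3 and 0.216 times at day 5, and the dendritic cell markers to 0.562 and 0.397 times. Monocyte and macrophage markers summed to 1.29 and 1.20 times, although 5 of 12 were above 0 at either day; Ly6c2, of inflammatory monocytes, and Marco, a scavenger receptor, were higher by the size rule at both days, and Adgre1, a macrophage receptor, was lower by it at day 5. Erythroid markers summed to 0.219 and 0.425 times. Of 10 reference genes, 8 were above 0 at day 3 and 7 at day 5, with medians of 0.14 and 0.19, and their sum, mostly Actb and B2m (named after their values were seen), was 1.01 and 1.02 times the wild-type level. The part of proliferation, Myc and cell makeup in the members' differences was not tested.

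Few members met the size rule between the days. In Nfkb1-/- cells 8 of 31 were higher at day 5, where 56.1% of all genes were, and the median log2 difference was -0.08. The size rule was met by 0 that were higher, where 0.594% of all genes met it, and by 1 that was lower, Slc2a3, where 3.01% did. In wild-type cells 9 of 31 were higher at day 5, where 69.3% of all genes were, with a median of -0.18. There 0 met the size rule as higher, where 1.80% of all genes did, and 1 as lower, Slc16a3, where 2.05% did. With equal sums of RPKM the members' median in Nfkb1-/- cells became 0.001 with 16 above 0, and under the median-ratio rescaling the share of all genes above 0 in wild-type cells became 51.1%.

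Slc2a3 had 18.2 RPKM at day 5 and 53.3 RPKM at day 3 in Nfkb1-/- cells, and 47.0 RPKM at day 5 and 72.4 RPKM at day 3 in wild-type cells, giving day 5 to day 3 ratios of 0.342 (0.319 to 0.366) and 0.649 (0.620 to 0.680). Slc16a3 had 9.23 RPKM at day 5 and 19.6 RPKM at day 3 in wild-type cells, a ratio of 0.471 (0.414 to 0.534), against 0.692 (0.635 to 0.755) in Nfkb1-/- cells. Hk3 and Pfkfb4 were lower at day 5 in both genotypes, with ratios in Nfkb1-/- cells of 0.535 for each, and in wild-type cells of 0.686 (0.633 to 0.743) for Hk3 and 0.642 (0.585 to 0.704) for Pfkfb4. Egln3 was lower at day 5 by a ratio of 0.650 (0.581 to 0.727) in Nfkb1-/- cells and 0.618 (0.523 to 0.730) in wild-type cells. The neutrophil markers summed to 0.125 times their day 3 level at day 5 in Nfkb1-/- cells and 0.405 times in wild-type cells. In each genotype 14 of 14 were lower by the size rule, where 3.01% of all genes were in Nfkb1-/- cells and 2.05% in wild-type cells. The part of these markers in the members' changes was not tested. Tpi1 and Slc16a1 were higher at day 5 in Nfkb1-/- cells and lower at day 5 in wild-type cells.

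**Figure D5:**
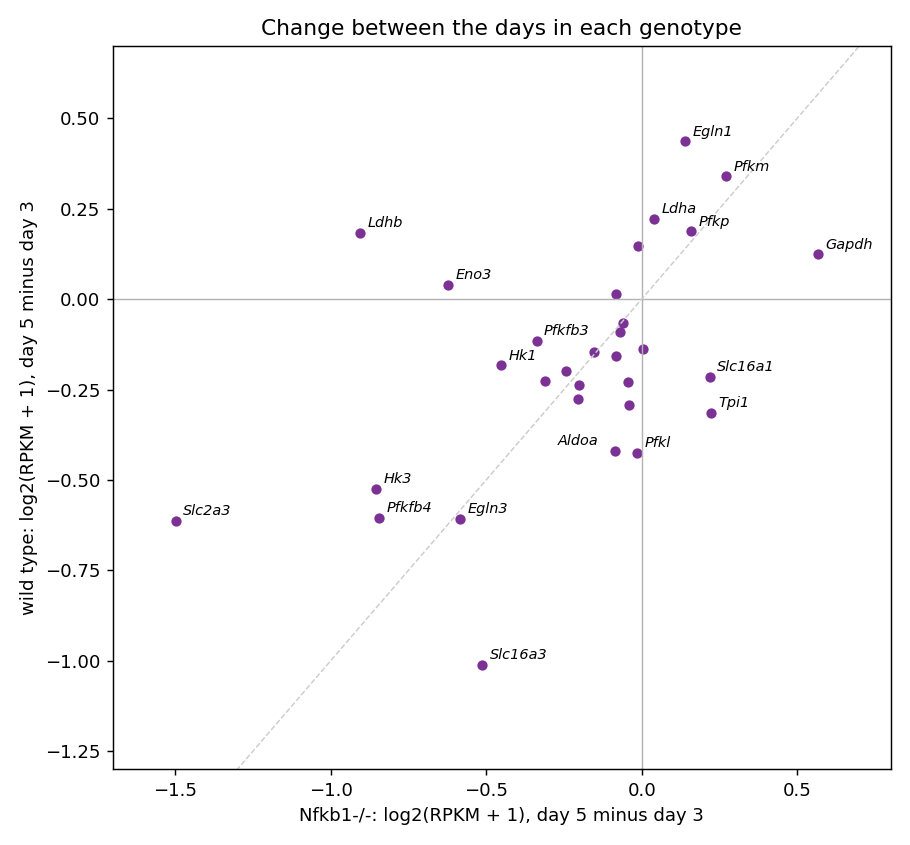
Difference of log2(RPKM + 1), day 5 minus day 3, in Nfkb1-/- cells (x axis) and wild-type cells (y axis) for 31 genes, 1 library per group; the dashed line marks equal change. Most points lie below 0 on both axes, Slc2a3 is farthest left at -1.50, and Slc16a3 is lowest at -1.01.

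The genotype difference shifted little for the list as a whole. The shift, day 5 difference minus day 3 difference, had a median of -0.01 over the members and -0.14 over all genes, with 15 of 31 above 0, where 33.3% of all genes were. The size rule was met by 0 that were higher, where 1.00% of all genes met it, and by 1 that was lower, Ldhb at -1.09, where 2.63% did. The genes with the greatest upward shifts were Tpi1 (0.54), Slc16a3 (0.50), Gapdh (0.44), Slc16a1 (0.43) and Pfkl (0.41), and the downward ones after Ldhb were Slc2a3 (-0.89) and Eno3 (-0.66). Gapdh rests on 16 to 32 reads, and its genotype intervals, 0.350 to 1.44 at day 3 and 0.744 to 2.25 at day 5, included 1. In all, 20 of 31 members (64.5%) lay farther from 0 at day 5 than at day 3, as did 51.5% of all genes. Under the median-ratio rescaling the median of all genes became -0.01, that of the members 0.11 with 21 above 0, and the share of all genes above 0 became 49.2%.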

How the data were processed

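PolyA RNA from 4 cultures was sequenced, 1 library per group. The submitters' processing notes name HISAT2, SAMtools and genome build mm9. What counted the reads, over which annotation and with which strand setting, is not given in the sources used here. Deposited by the authors were RPKM per gene, per the file headers, with no counts, and no column was left over (0). The members and the other gene lists were chosen with earlier results of these data known.

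Because RPKM of 1 gene are whole multiples of what 1 read is worth, reads were recovered within 0.003 reads for all 26026 genes, giving the libraries' totals; 7960 genes stood at 1 read in every library, so 1 read may be a floor or may have been added to every value. The recovery was checked on simulated data. Differences are of log2(RPKM + 1) over the 11786 genes averaging 1 RPKM or more, described by size (at least 1), sign and median. Exact (Clopper-Pearson) 95% intervals of read ratios cover counting error only; without molecular identifiers, reads can be copies of one another.

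All members are named, with Nfkb1 and Myc. From each other list up to 4 genes with the greatest difference past the size rule between genotypes could be named, and a gene named beyond this is marked as picked on its values. Alternatives were other pseudocounts (0.1 or 5 RPKM), other filters (none, or a mean of 5 RPKM) and 2 rescalings, by median ratio and to equal sums of RPKM. Leaving out members that share at least 10% of 50-base stretches with other genes was added after the data were seen. Promoters came from RefSeq (GRCm38.p6): 35 of the 45 continued into a transcript of the gene on the same strand over 30 bases. Python 3.11.15, numpy 2.4.6, pandas 2.3.3, SciPy 1.17.1 and matplotlib 3.10.9 were used.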

Additional observations from a re-analysis of the deposited data

Results flagged for a closer look

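Tpi1 and Slc16a1 changed in opposite directions between the days in the 2 genotypes, with counting intervals clear of 1 in each. On the log2(RPKM + 1) scale, day 5 minus day 3, Tpi1 differed by 0.22 in Nfkb1-/- cells and by -0.31 in wild-type cells. Slc16a1 differed by 0.22 in Nfkb1-/- cells and by -0.22 in wild-type cells. With 1 library per group the difference between the genotypes was not tested.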

How the results depend on the processing

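No paired analysis was possible because each group holds 1 library, and for the same reason no library could be left out. With a pseudocount of 0.1 RPKM, 5 members met the size rule between genotypes at day 3 in place of 2, and 2 between days in Nfkb1-/- cells in place of 1. The shares of all genes also moved, to 1.93% higher and 1.88% lower at day 3. Between days in Nfkb1-/- cells they were 1.29% higher and 4.49% lower. With a pseudocount of 5 RPKM, the counts became 0 at day 3 and 3 at day 5 (10 as reported), 0 between days in wild-type cells and 0 for the shift. The shares of all genes then were 0.229% higher and 0.17% lower at day 3, and 0.458% higher and 0.899% lower at day 5. They were 0.492% and 0.662% between days in wild-type cells, and 0.255% and 0.713% for the shift. A mean of at least 5 RPKM gave a day 5 genotype median of 0.64 and a shift count of 0. Of all genes with that mean, 0.484% were higher and 2.11% lower by the size rule for the shift. The median-ratio rescaling gave a day 3 count of 0 and median of 0.34, a wild-type day median of -0.35, a shift count of 0 and a shift median of 0.11, the reverse of -0.01. Under it 0.594% of all genes were higher and 1.32% lower by the size rule at day 3, and 1.28% and 1.82% for the shift. Equal sums of RPKM gave a day 3 count of 0 and reversed medians of 0.0012 between days in Nfkb1-/- cells and 0.10 for the shift. With equal sums 0.687% of all genes were higher and 1.06% lower by the size rule at day 3. Leaving out members with shared stretches gave a shift count of 0, as Ldhb was among them. For the rest the cause was not tested. Under the median-ratio rescaling, 102 of 155 differences of single members kept their side of the size rule and, if below it, stayed within counting error. The same held for 131 with equal sums, 137 with a pseudocount of 5 RPKM and 151 with 0.1 RPKM. A filter only chooses which genes are counted and cannot change a single difference. That all 155 stayed the same with no filter was therefore fixed in advance. Depth limits Gapdh, Eno2, Ldhb, Aldoc, Pfkm and Eno3, the members of fewest reads; spread between cultures is unknown for all.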

Other observations

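Neighbouring pathways were lists of the same kind. Among all 11786 genes, 66.6% were higher in Nfkb1-/- cells at day 3 and 51.2% at day 5, with median log2 differences of 0.13 and 0.01. By the size rule 0.976% of all genes were higher and 0.882% lower at day 3, and 1.16% and 3.22% at day 5. Of 25 genes that bring pyruvate into the tricarboxylic acid cycle or form it, 24 had a mean of at least 1 RPKM; 23 were higher in Nfkb1-/- cells at day 3 and 20 at day 5, none by the size rule, with median log2 differences of 0.31 and 0.34. They summed to 1165 RPKM in Nfkb1-/- cells and 906.8 RPKM in wild-type cells at day 3, and 1355 RPKM in Nfkb1-/- cells and 1086 RPKM in wild-type cells at day 5. The 9 pentose phosphate genes, which yield NADPH and ribose, summed to 1103 RPKM in Nfkb1-/- cells and 1120 RPKM in wild-type cells at day 3, and 955.4 RPKM in Nfkb1-/- cells and 979.0 RPKM in wild-type cells at day 5.

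The 8 glycogen genes summed to 345.6 RPKM in Nfkb1-/- cells and 382.8 RPKM in wild-type cells at day 3, and 189.9 RPKM in Nfkb1-/- cells and 243.9 RPKM in wild-type cells at day 5. Pygl, the liver-type glycogen phosphorylase, chosen after its values were seen, was the largest part of that sum in every library. It had 75.1 RPKM at day 5 and 213.8 RPKM at day 3 in Nfkb1-/- cells, and 124.1 RPKM at day 5 and 274.1 RPKM at day 3 in wild-type cells.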
